A study of Homo sapiens with 6 samples.

Results

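The unfolded protein response of the endoplasmic reticulum (ER) was followed through 10 genes in HT29 cells after knockdown of ALDOA. The genes were chosen by symbol and were HSPA5, HSP90B1, XBP1, ATF6, ERN1, DNAJB9, DNAJB11, DNAJC3, HERPUD1 and SEL1L, that is sensors and factors of the ATF6 and XBP1 arms, chaperones of the ER and genes of ER-associated degradation. All 10 were found among the 28278 genes listed for each library, and all 10 passed the filter on low counts. HT29 is a line of human colorectal adenocarcinoma cells with an epithelial shape. The cells received either an siRNA against ALDOA (siALDOA) or a scrambled siRNA (siControl), and total RNA was taken 48 h later. Each group held 3 biological replicates, and RNA-Seq gave 1 library per replicate. Neither an untransfected group nor a second ALDOA siRNA was analysed here, so the comparison is that of 1 siRNA treatment with the scrambled control.

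Secretory and membrane proteins fold inside the ER with the help of chaperones, and unfolded protein there is sensed by the membrane proteins IRE1 (gene ERN1), ATF6 and PERK (gene EIF2AK3). IRE1 splices the mRNA of XBP1 into the form that encodes an active transcription factor, ATF6 is cut in the Golgi to release another one, and PERK slows translation through the initiation factor eIF2. XBP1 and ATF6 switch on genes for chaperones, folding enzymes and degradation factors, and in the intestinal epithelium XBP1 is known for its role in secretory cells.

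The siALDOA libraries held 28166497, 28690395 and 27277538 counts, and the siControl libraries held 33237914, 31973122 and 31899091. Counts were scaled by TMM normalization and are given as CPM. ALDOA, the target, was at 283, 305 and 279.7 CPM after its knockdown and at 592, 637 and 668 CPM in siControl. It was lower in every siALDOA library than in any siControl library, and fell by 1.13 on the log2 scale (standard error 0.060, adjusted p = 6.95e-11 in edgeR's quasi-likelihood test). A further listed symbol, LOC112694756, had similar counts to ALDOA in each library and a log2 fold change of -1.12. ALDOA shares 1639 of its 3829 exon bases with an unnamed gene on the same strand. Whether both symbols count the same reads was not tested, so LOC112694756 is not taken as a second gene that fell. Of 12 markers of colon epithelium, 11 were tested and LGALS4 was listed at 0 in all 6 libraries. Their summed level was 9486, 9659 and 9817 CPM with siALDOA and 10049.6, 10325 and 10609.7 CPM with siControl, and KRT8 was the most abundant. Among them KRT18 fell by 0.28 on the log2 scale (adjusted p = 0.0152 in edgeR) and KRT19 rose by 0.38 (adjusted p = 5.77e-04). KRT18 did not pass without siALDOA replicate 2 or 3, without siControl replicate 2 or 3, or with library totals only, where its adjusted p reached 0.243. The 7 markers of fibroblasts summed to between 93 and 139 counts per library, mostly COL1A1 and LUM, with COL1A2 at 0 throughout, and the 7 markers of blood cells to between 0 and 13 counts, with CD3E and TYROBP at 0 throughout. Whether exact zeros such as that of LGALS4 reflect the counting was not tested.

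Only small differences were seen in the 10 genes, and they ran both ways. HSP90B1, the ER member of the HSP90 chaperones, rose with siALDOA, and SEL1L, a subunit of the membrane complex that exports misfolded proteins for degradation, fell. No other member passed an adjusted p < 0.05 in edgeR's quasi-likelihood test with Benjamini-Hochberg adjustment over the 15307 genes tested. Thus 1 of 10 members was lower and 1 of 10 was higher, where 5.29% and 4.36% of all tested genes were lower and higher, and 9.66% were called in either direction. The groups did not overlap in 3 members that were lower with siALDOA and in 3 that were higher, where this was so for 14.6% and 13.1% of all tested genes. By the unadjusted values of edgeR, a threshold of 0.05 took 3 members as lower and 2 as higher, beside 12.3% and 11.3% of all tested genes. A threshold of 0.01 took 1 and 1, beside 6.74% and 5.72%. The log2 fold changes ran from -0.22 for ERN1 to 0.26 for HSP90B1, with 6 negative and 4 positive values. Their median was -0.059, against 0.0016 over all tested genes. When the libraries were scaled by their totals only, the median of the members became 0.014 and that of all genes 0.075. This scaling moves all genes alike, so it says nothing about the gap between the medians.

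**Figure D1:**
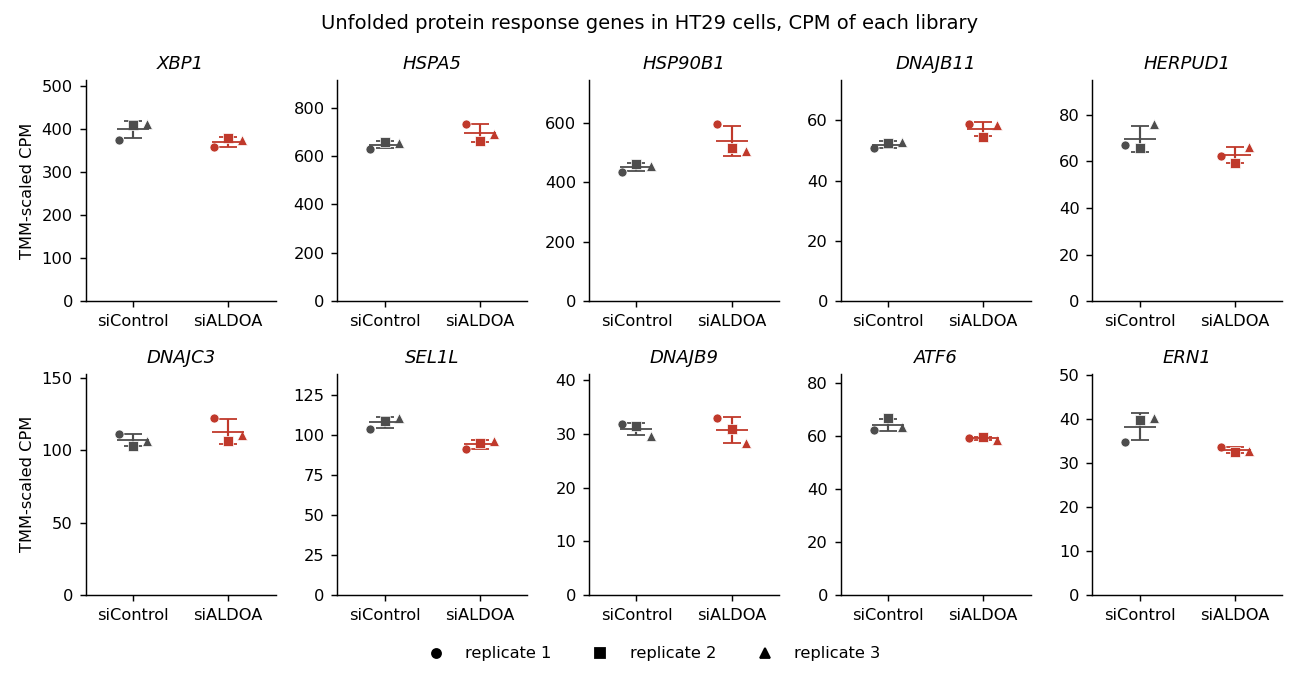
TMM-scaled CPM of the 10 genes in each library, with 1 panel per gene and siControl in grey and siALDOA in red; points are libraries, and bars show the mean ± SD of 3 replicates. HSP90B1 lies at 505 to 595 CPM with siALDOA and at 435 to 462.5 CPM with siControl, and SEL1L at 91.1 to 96.4 against 104 to 111 CPM.

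Divided by the length of the Ensembl canonical transcript, the level in siControl was highest for XBP1, at 222 ± 11.4 CPM per kb (SD, n = 3). HSPA5 followed at 165 ± 3.95 and HSP90B1 at 162 ± 5.04 CPM per kb, and the ranges of these chaperones overlapped, although HSPA5 was the higher in each siControl library. A wide step separated them from the next genes, DNAJB11 at 31.7 CPM per kb, HERPUD1 at 24.4 and DNAJC3 at 19.1. SEL1L at 13.6 and DNAJB9 at 12.8 CPM per kb again overlapped in their ranges. The sensors were the least abundant per length, with ATF6 at 8.57 and ERN1 at 4.84 CPM per kb. In raw counts the members ranged from 803 for DNAJB9 to 21497 for HSPA5 in a library, so none was near the filter.

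HSPA5 encodes BiP, the Hsp70 chaperone of the ER lumen that also holds the sensors inactive. It was at 732, 660.1 and 691 CPM with siALDOA and at 629, 659 and 652 CPM with siControl. The groups just failed to touch, since siALDOA replicate 2 lay beside siControl replicate 2, and siALDOA replicate 1 was the highest. The log2 fold change of 0.10 (standard error 0.059, 95% confidence interval -0.020 to 0.22, adjusted p = 0.309 in edgeR) did not pass the threshold, and was 0.062 when siALDOA replicate 1 was left out and 0.17 under library totals only. HSP90B1 encodes GRP94, which folds a narrower range of clients, integrins and Toll-like receptors among them. It was at 595, 515 and 505 CPM with siALDOA and at 435, 462.5 and 455 CPM with siControl. All 3 siALDOA libraries lay above all siControl libraries, with siALDOA replicate 1 apart from the others. The rise was 0.26 on the log2 scale (standard error 0.063, 95% confidence interval 0.12 to 0.39, adjusted p = 0.0122 in edgeR), or 19.4%. Without siControl replicate 3 the log2 fold change was 0.26 and the adjusted p 0.0565, while over the other alternatives the call was kept.

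The J-domain partners of BiP among the 10 members, DNAJB11, DNAJC3 and DNAJB9, showed no call. DNAJB11 (ERdj3), which binds unfolded chains and hands them to BiP, was at 58.8, 54.4 and 58.4 CPM with siALDOA and at 50.7, 52.6 and 52.7 CPM with siControl. The groups did not overlap, and the log2 fold change was 0.14 (standard error 0.065, adjusted p = 0.204 in edgeR). DNAJC3, a lumenal cochaperone that was first described as an inhibitor of eIF2 kinases, was at 122, 106 and 110.1 CPM with siALDOA and at 111, 103 and 106 CPM with siControl. DNAJB9 (ERdj4), which acts on IRE1 and on degradation substrates, was at 33.0, 31.0 and 28.3 CPM against 31.8, 31.4 and 29.7 CPM. Both overlapped between the groups, with log2 fold changes of 0.078 for DNAJC3 and -0.0092 for DNAJB9, and the sign of DNAJB9 changed with the processing, from -0.063 to 0.064. DNAJC3 dropped to 0.016 when siALDOA replicate 1 was left out, and was 0.15 under library totals only. For HSPA5, HSP90B1, DNAJB9, DNAJB11 and DNAJC3 the highest siALDOA library was replicate 1, which was the highest of its group for 6 of the 10 members. Replicate 1 also held the largest share of ribosomal RNA among the siALDOA libraries, at 13.1% of counts against 7.71% and 8.11%, and the siControl libraries held 17.4%, 15.3% and 8.15%. The part of this share in the levels was not tested.

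The sensors and XBP1 lay on the other side of 0. ERN1 was at 33.6, 32.4 and 32.6 CPM with siALDOA and at 34.7, 39.7 and 40.2 CPM with siControl. The siALDOA libraries were close together and below all siControl libraries, of which replicate 1 was the lowest. The log2 fold change was -0.22 (standard error 0.077, 95% confidence interval -0.38 to -0.057, adjusted p = 0.0833 in edgeR), and it passed only without siControl replicate 1, at -0.28 and an adjusted p of 0.0325. ATF6 was at 59.3, 59.4 and 58.2 CPM with siALDOA and at 62.1, 66.7 and 63.2 CPM with siControl, again without overlap, and its log2 fold change of -0.12 had an adjusted p of 0.267 in edgeR (-0.045 and 0.814 under library totals only). XBP1 was at 356, 379 and 373 CPM with siALDOA and at 375, 409 and 411 CPM with siControl. Here siControl replicate 1 fell among the siALDOA libraries, and the log2 fold change was -0.11 (standard error 0.057, 95% confidence interval -0.23 to 0.010, adjusted p = 0.259 in edgeR), or -0.036 with an adjusted p of 0.857 under library totals only. The counts are summed per gene, so the spliced and unspliced forms of XBP1 mRNA could not be told apart, and neither could the cut and uncut forms of the ATF6 protein.

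The 2 members of ER-associated degradation were both lower in mean. SEL1L, which joins the ubiquitin ligase HRD1 (gene SYVN1) to its lumenal substrates, was at 91.1, 95.1 and 96.4 CPM with siALDOA and at 104, 109 and 111 CPM with siControl. No siALDOA library reached a siControl library, and SEL1L fell by 0.19 on the log2 scale (standard error 0.059, 95% confidence interval -0.32 to -0.072, adjusted p = 0.0411 in edgeR), or by 12.6%. This call was fragile, since among the fits that left out 1 library it was kept only without siControl replicate 1. The adjusted p was 0.0657, 0.0947 and 0.0695 without siALDOA replicate 1, 2 and 3, 0.130 and 0.187 without siControl replicate 2 and 3, and 0.426 with library totals only, where the log2 fold change was -0.12. With library totals and without ribosomal RNA genes, a setting added after the data were seen, these were 0.0485 and -0.19. HERPUD1, a membrane protein that gathers the degradation complex and is a classical target of the response, was at 62.5, 59.4 and 66.3 CPM with siALDOA and at 67.1, 65.6 and 76.0 CPM with siControl. Its groups overlapped through siALDOA replicate 3 and siControl replicate 2, and the log2 fold change was -0.15 (standard error 0.070, adjusted p = 0.203 in edgeR). It was -0.081 without siControl replicate 3 and -0.080 with library totals only.

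**Figure D2:**
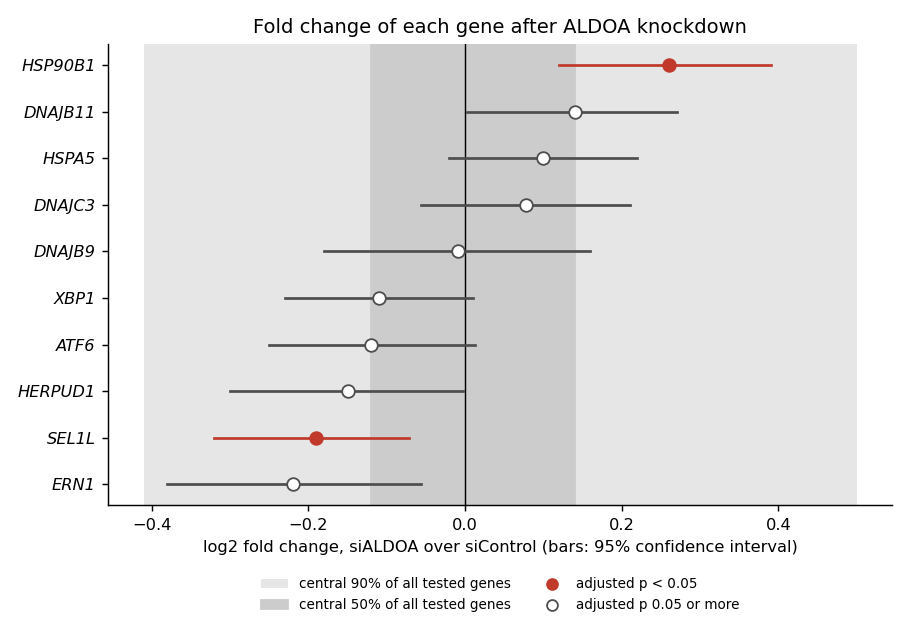
Log2 fold change of the 10 genes, siALDOA over siControl, with 95% confidence intervals from edgeR; red marks an adjusted p < 0.05, and the grey bands hold the central 50% (-0.12 to 0.14) and 90% (-0.41 to 0.50) of all tested genes. HSP90B1 at 0.26 and SEL1L at -0.19 are the called genes, and all 10 points lie within the wider band.

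Because members differed in sign, their proportions within a library were compared as ratios of raw counts, which need no scaling between libraries. The pairs were chosen after the values were seen, so no test is given. HSP90B1 per XBP1 was 1.67, 1.36 and 1.35 with siALDOA, against 1.16, 1.13 and 1.11 with siControl. The ratio was thus higher in every siALDOA library, with means of 1.46 ± 0.181 and 1.13 ± 0.0271 (SD, n = 3). HSPA5 per XBP1 was 2.05, 1.74 and 1.85 against 1.68, 1.61 and 1.59, and HSPA5 per SEL1L was 8.03, 6.94 and 7.17 against 6.05, 6.06 and 5.90. Neither ratio overlapped between the groups, which for HSPA5 per SEL1L follows from the levels of each gene, since both were already without overlap and on opposite sides. HSP90B1 per HSPA5, the proportion of the main lumenal chaperones, was 0.813, 0.781 and 0.731 with siALDOA and 0.692, 0.702 and 0.698 with siControl, also without overlap. In all 3 panels of the plot of count ratios the siALDOA libraries spread more widely than the siControl libraries.

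**Figure D3:**
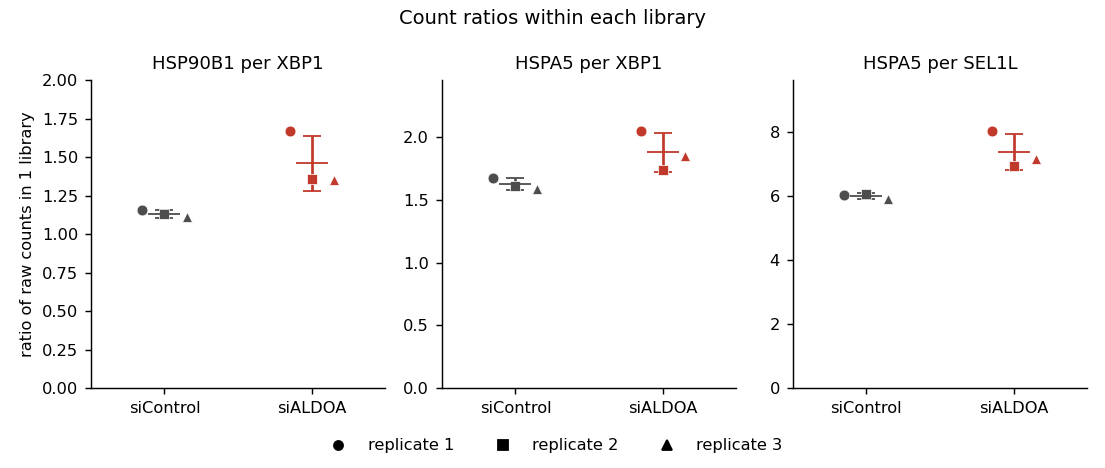
Ratios of raw counts within each library for HSP90B1 per XBP1, HSPA5 per XBP1 and HSPA5 per SEL1L; points are libraries, and bars show the mean ± SD of 3 replicates. HSPA5 per SEL1L is 6.94 to 8.03 with siALDOA and 5.90 to 6.06 with siControl.

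The promoters were read next, since ATF6 and XBP1 are known to act through short elements near the start of their target genes. The ER stress response element (ERSE) joins a CCAAT box, bound by NF-Y, to CCACG at a fixed distance of 9 bases (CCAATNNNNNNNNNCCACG), and ERSE-II joins ATTGG to CCACG with 1 base between them (ATTGGNCCACG). RefSeq windows on GRCh38.p14, from 250 bases before to 50 bases after the transcription start, were found for all 10 members and searched on both strands. Only exact matches to the fixed letters were sought. An ERSE was found in HSPA5, XBP1 and HSP90B1, the last with a pair of them, and an ERSE-II in HERPUD1. Near matches were not counted, such as a site in the HERPUD1 window that differs from an ERSE only in its last letter. A member without an exact match may thus still hold a related site. The sites are shown because members that share an element had log2 fold changes of either sign. Of these members only HSP90B1 was called, and whether they differed from each other was not tested. Capitals mark the fixed letters, each site is written on the strand that carries the motif, and 5 bases are added on each side. The coordinates are those of the motif.
HSPA5 ERSE, chr9:125241391-125241409, minus strand, 66 bases upstream: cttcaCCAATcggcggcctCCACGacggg
HSP90B1 ERSE, chr12:103930216-103930234, plus strand, 194 bases upstream: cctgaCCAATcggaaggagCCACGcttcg
HSP90B1 ERSE, chr12:103930321-103930339, minus strand, 89 bases upstream: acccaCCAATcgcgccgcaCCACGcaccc
XBP1 ERSE, chr22:28800603-28800621, minus strand, 52 bases upstream: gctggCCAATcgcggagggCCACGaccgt
HERPUD1 ERSE-II, chr16:56932025-56932035, plus strand, 117 bases upstream: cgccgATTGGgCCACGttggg

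The ERSE letters were rare, occurring in 27 of 35116 promoter windows (0.0769%), and those of ERSE-II in 19 (0.0541%). Its parts were common, with CCAAT in 34.6% and CCACG in 38.1% of windows, and each ERSE is counted in these shares too. A further element, the unfolded protein response element TGACGTGG or TGACGTGA, occurred in 0.729% and 0.45% of windows and in 0 of the 10 members, which says only that these letters are not in these windows. Among the further ER genes described below, it occurred in DNAJC10, TXNDC11, SSR3 and UBXN4, which were called lower. It also occurred in SEC62, SSR4, TXNDC5, UBE2J1 and VCP, which were not called, and in HYOU1, which was not tested. Whether this element goes with a change was not tested. XBP1 has windows at 2 starts, and only 1 of them holds the ERSE. The members with an ERSE had log2 fold changes of 0.26 (HSP90B1), 0.10 (HSPA5) and -0.11 (XBP1), and HERPUD1 with an ERSE-II had -0.15. Among the further ER genes an ERSE-II was found in SDF2L1 and in HYOU1. SDF2L1 had a log2 fold change of 0.28 and was not called (adjusted p = 0.0563 in edgeR), and HYOU1 was not tested.

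**Figure D4:**
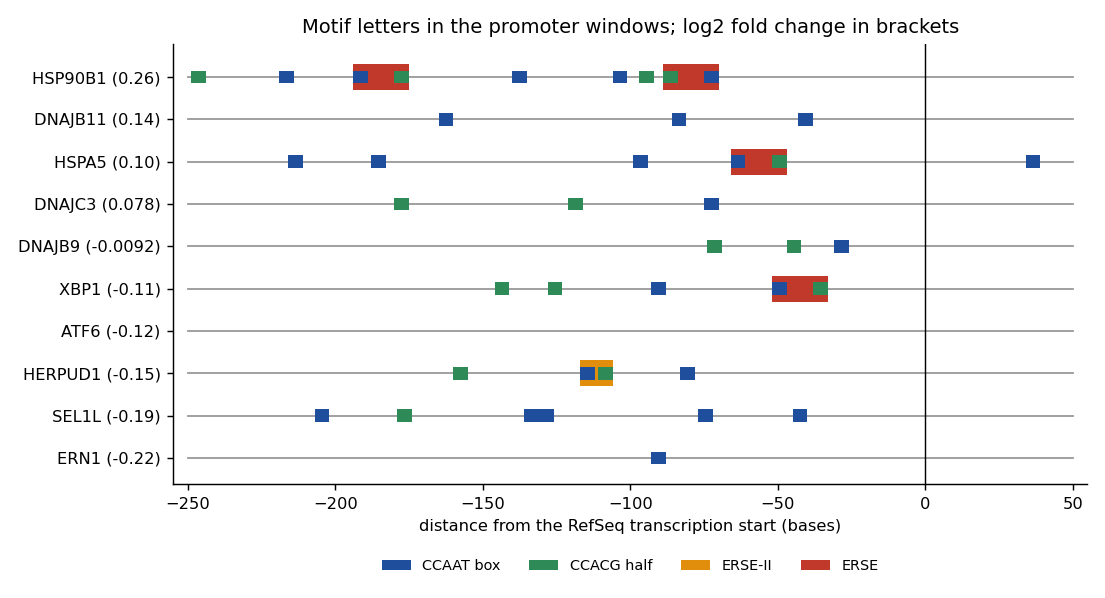
Positions of ERSE, ERSE-II, CCAAT and CCACG letters, on either strand, in the promoter windows of the 10 genes, drawn to scale against the distance from the transcription start in bases, with the log2 fold change of each gene in brackets. For XBP1 the window with the ERSE is drawn; HSP90B1 holds a pair of ERSE, at 194 and 89 bases upstream, and ATF6 holds none of these letters.

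Over all genes an ERSE was found at 24 distinct sites belonging to 25 genes, of which 23 were listed and 16 were tested. Of these, 5 were higher with siALDOA, 1 was lower and 10 were not called, with a median log2 fold change of 0.20, against 0.0016 over all genes. Over all tested genes 4.36% were higher and 5.29% lower. The groups did not overlap in 9 of the 16 that were higher and 2 that were lower, beside 13.1% and 14.6% of all tested genes. These genes were taken up after values of the members were known and include HSP90B1, so the count describes them without a test. Besides HSP90B1, the genes that rose were CRELD2, a lumenal folding factor, by 0.63 (standard error 0.11, adjusted p = 8.66e-04 in edgeR), TRIM5 by 0.61, CALR, the lectin chaperone calreticulin, by 0.24, and EIF2A by 0.23. SYNPO, an actin-binding protein, was the gene that fell, by 0.44 (adjusted p = 0.0271 in edgeR). Without siControl replicate 3 the number of higher genes was 2, and over the fits that left out 1 library it ranged from 2 to 6. CALR (adjusted p = 0.0524), EIF2A and HSP90B1 were the calls lost in that fit. SYNPO was not called without siALDOA replicate 1 or 3 or without siControl replicate 2 or 3, nor with library totals only, and EIF2A also not without siALDOA replicate 2 or siControl replicate 2.

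At 2 sites an ERSE lay between genes that run in opposite directions. CRELD2 and ALG12, a mannosyltransferase of glycan assembly, share the site at chr22:49918554-49918572. ALG12 was at 28.7, 33.1 and 34.6 CPM with siALDOA and at 26.6, 27.4 and 26.2 CPM with siControl, with a log2 fold change of 0.27 that missed the threshold (adjusted p = 0.0517 in edgeR). It was called higher in 9 of 16 alternatives, DESeq2, library totals only and the fit without siALDOA replicate 1 among them, and its adjusted p ranged from 0.00992 to 0.203. EIF2A and SERP1, a small protein of the translocon, share the site at chr3:150546710-150546728. EIF2A was at 179, 171 and 164 CPM with siALDOA and at 154, 148 and 137 CPM with siControl, while SERP1 was at 273, 265 and 261 against 264, 268 and 271 CPM. The groups of SERP1 overlapped, with a log2 fold change of -0.011 (adjusted p = 0.933 in edgeR), so the gene on one side of the site was called and the gene on the other was not. Whether the genes of a pair differed from each other was not tested. The site of CRELD2 and ALG12 and that of CALR are printed with the fixed letters in capitals, on the strand that carries the motif.
CRELD2 and ALG12 ERSE, chr22:49918554-49918572, minus strand: atggcCCAATccgagttcgCCACGagagg
CALR ERSE, chr19:12938384-12938402, minus strand: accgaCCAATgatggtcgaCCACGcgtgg

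Beyond the members, 102 further ER genes in 6 lists were followed, of which 99 were tested. With siALDOA 17 were lower and 8 were higher, beside 5.29% and 4.36% of all tested genes. The median log2 fold change of the further ER genes was -0.023. With library totals only the numbers were 4 and 9, where those of all genes went from 810 lower and 668 higher to 279 and 896. With ribosomal RNA genes also left out, a setting added after the data were seen, they were 16 and 9, and 760 and 735 for all genes. They were 8 lower without siControl replicate 2, and 8 lower and 7 higher without siControl replicate 3. The higher calls came from the lists of chaperones and disulfide enzymes, while 8 of the 17 lower calls came from the list of the PERK arm, 4 from degradation, 2 from translocation and 1 from each other list.

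Among the ER chaperones and cofactors of BiP, 5 of 16 tested genes rose, 1 fell and 10 were not called, with a median of 0.17. Of all tested genes, 4.36% were higher and 5.29% lower. GANAB and PRKCSH, the subunits of glucosidase II, which trims glucose from N-glycans so that clients can bind the lectin chaperones, rose together. GANAB was at 472, 526 and 547 CPM with siALDOA and at 353, 356 and 382.5 CPM with siControl, a rise of 0.50 on the log2 scale (standard error 0.061, adjusted p = 1.20e-05 in edgeR). PRKCSH was at 162, 172 and 170.2 CPM against 132, 131 and 141 CPM, a rise of 0.32 (standard error 0.058, adjusted p = 0.00102). In neither did a siALDOA library reach down to a siControl library. MANF, a secreted factor that binds BiP, rose by 0.43 (adjusted p = 0.00605 in edgeR), and CALR by 0.24 (adjusted p = 0.00647). MANF was, like HSP90B1, highest in siALDOA replicate 1, at 41.2 CPM against 32.3 and 31.8, and the siControl libraries were at 25.9, 27.7 and 24.7 CPM. The gene that fell was DNAJC10 (ERdj5), a reductase that opens disulfides of degradation substrates, at 138, 134 and 132 CPM with siALDOA and 167, 171 and 169.8 CPM with siControl (log2 fold change -0.33, adjusted p = 4.59e-04 in edgeR). All calls of this list except CALR were kept in each fit that left out 1 library. PPIB, a prolyl isomerase and the most abundant of the list per length at 311 CPM per kb in siControl, overlapped between the groups, with a log2 fold change of 0.091 (adjusted p = 0.390 in edgeR). HYOU1 and CANX were listed at 0 in all 6 libraries, as was SESN2 of the PERK list, and were not tested; whether these zeros reflect the counting was not tested.

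Of 17 disulfide and redox enzymes, 3 rose, 1 fell and 13 were not called, with a median of 0.11. The shares of all tested genes were 4.36% higher and 5.29% lower. PDIA3, the disulfide isomerase that works with the lectin chaperones, was at 564, 505 and 486 CPM with siALDOA and at 407, 417 and 416 CPM with siControl (log2 fold change 0.33, standard error 0.060, adjusted p = 0.00111 in edgeR). PDIA4 rose by 0.27 and ERO1A, the oxidase that recharges the isomerases, by 0.28. Each was higher in every siALDOA library than in any siControl library, and each was called in every alternative tried. P4HB, the most abundant of the list per length at 252 CPM per kb in siControl, had a log2 fold change of 0.058 (adjusted p = 0.629 in edgeR). TXNDC11 fell by 0.28 (adjusted p = 0.0182), but was not called without siALDOA replicate 2, without siControl replicate 1 or 3, or with library totals only (adjusted p = 0.157).

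**Figure D5:**
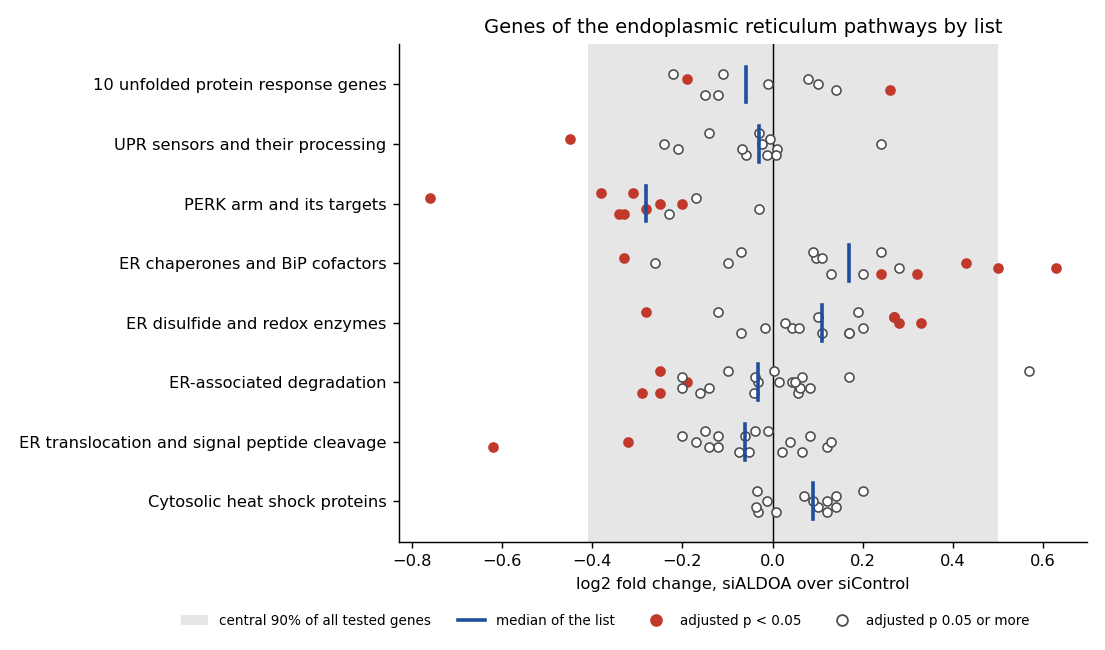
Log2 fold change, siALDOA over siControl, of each tested gene of the ER lists and of the cytosolic heat shock proteins; red points have an adjusted p < 0.05, blue bars are list medians, and the grey band holds the central 90% of all tested genes. The median is 0.17 for chaperones and 0.11 for disulfide enzymes, -0.28 for the PERK arm, and between -0.061 and 0.089 for the other lists; with library totals only, which moves the median of all genes from 0.0016 to 0.075, those of sensors, degradation and translocation move alike, to 0.039, 0.042 and 0.014.

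In the list of the PERK arm, 8 of 11 tested genes were lower and 0 were higher, with a median of -0.28. At an unadjusted p < 0.05 edgeR found 9 lower and 0 higher. The shares of all tested genes were 5.29% lower and 4.36% higher, and 12.3% and 11.3% at the unadjusted threshold. Neither limma-voom nor DESeq2 called a higher gene in this list. CHAC1, a glutathione-degrading enzyme, was at 24.4 CPM with siALDOA and at 41.3 CPM with siControl in mean, without overlap between the groups, and fell by 0.76 on the log2 scale (adjusted p = 7.51e-05 in edgeR). TRIB3 fell by 0.38, DDIT4 by 0.33, DDIT3, which encodes CHOP, by 0.31, and EIF2S1, the α subunit of eIF2, by 0.28, and the other called genes were VLDLR, PPP1R15A and CEBPB. ATF4, whose product is controlled mostly by translation, was at 529, 532 and 537 CPM against 529, 549 and 554 CPM (log2 fold change -0.031, adjusted p = 0.784 in edgeR). PERK itself, EIF2AK3, had a log2 fold change of 0.0068 (adjusted p = 0.975). Values of several of these genes were known when the list was drawn up, so the count is no independent evidence of a direction. With library totals only CHAC1 alone was called and the median was -0.21, while library totals without ribosomal RNA genes, a setting added after the data were seen, gave 7 lower genes. The fits that left out 1 library gave 2 to 7 lower genes. In those fits the calls of CHAC1 and DDIT4 were always kept, TRIB3 was lost without siControl replicate 2 or 3 (and in DESeq2), and DDIT3 and CEBPB without siALDOA replicate 3 or siControl replicate 2 or 3. EIF2S1 was lost without siALDOA replicate 3 or siControl replicate 2, PPP1R15A without siALDOA replicate 1 or 2 or siControl replicate 2 or 3, and VLDLR without any 1 library.

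Of 23 genes of ER-associated degradation 4 were lower and 0 were higher, with a median of -0.032. The shares of all tested genes were 5.29% lower and 4.36% higher. UBXN4, a membrane anchor of the VCP segregase, fell by 0.29 (adjusted p = 0.00196 in edgeR), FAF2, another one, by 0.25 (adjusted p = 0.0115), EDEM1, a mannosidase-like factor, by 0.25 (adjusted p = 0.0137), and DERL1 by 0.19 (adjusted p = 0.0454). Each of these was below the siControl libraries in all 3 siALDOA libraries, as SEL1L was. SYVN1, the ligase partner of SEL1L, was at 57.5, 65.6 and 63.6 CPM against 57.8, 60.4 and 63.1 CPM, with overlap and a log2 fold change of 0.043. VCP, the most abundant of the list per length at 100.4 CPM per kb in siControl, also overlapped, with a log2 fold change of 0.050 (adjusted p = 0.640 in edgeR). An unadjusted p < 0.05 in edgeR was reached by 7 lower genes and 1 higher gene of this list, beside 12.3% and 11.3% of all tested genes. In the list, limma-voom called 0 and DESeq2 1 as higher. UBXN4 was kept in every fit that left out 1 library, but with library totals only 0 genes of the list were lower, against 4 once ribosomal RNA genes were also left out. FAF2 and EDEM1 were lost without siControl replicate 2 or 3, EDEM1 also without siALDOA replicate 2, and DERL1 without siALDOA replicate 1 or 2 or siControl replicate 2 or 3.

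Translocation into the ER held 2 lower and 0 higher genes among 19, with a median of -0.061, and 5 lower and 0 higher genes at an unadjusted p < 0.05. Of all tested genes 5.29% were lower and 4.36% higher, and 12.3% and 11.3% at the unadjusted threshold. In the list, limma-voom and DESeq2 each called 3 lower and 0 higher genes. SSR3, a subunit of the translocon-associated protein complex, was at 116, 117 and 116 CPM with siALDOA and at 172.5, 183 and 181 CPM with siControl, and fell by 0.62 (standard error 0.056, adjusted p = 1.35e-07 in edgeR). Its partner SSR4 was at 116, 126.5 and 119.8 CPM against 114, 120.5 and 119 CPM, so that within the complex the fall of SSR3 stood beside a log2 fold change of 0.038 for SSR4. SRPRA, of the signal recognition particle receptor, fell by 0.32 (adjusted p = 0.00186), with 0.0766 under library totals only. Among 13 further sensors and their processing factors, CREB3L2, a membrane-bound transcription factor related to ATF6, fell by 0.45 (adjusted p = 0.00395 in edgeR), and 0 were higher. At an unadjusted p < 0.05 in edgeR, 3 of these sensors and factors were lower and 1 was higher. Both limma-voom and DESeq2 called 1 lower and 0 higher. In edgeR 1 was called higher without siControl replicate 1 and with the replicate block. TMBIM6, the most abundant of these per length at 449.9 CPM per kb in siControl, had a log2 fold change of -0.067 (adjusted p = 0.576 in edgeR), although its groups did not overlap. The second genes of the ATF6 and IRE1 families were not called, with log2 fold changes of -0.058 for ATF6B and -0.21 for ERN2 (adjusted p = 0.124 in edgeR).

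Chaperones outside the ER were read side by side. Of 13 cytosolic and mitochondrial heat shock proteins, 0 were lower and 0 were higher in edgeR, with 0 and 3 at an unadjusted p < 0.05. Of all tested genes 5.29% were lower and 4.36% higher, and 12.3% and 11.3% at the unadjusted threshold. The heat shock numbers were 0 and 0 in limma-voom and 0 and 1 in DESeq2. The median of the heat shock proteins was 0.089, which became -0.011 without siALDOA replicate 1, 0.013 without siControl replicate 3 and 0.16 with library totals only. HSPA8, the most abundant per length, was at 1304, 1270.5 and 1217 CPM with siALDOA and at 1154, 1219 and 1062 CPM with siControl, with overlap and a log2 fold change of 0.14 (adjusted p = 0.208 in edgeR). Whether the ER and the other chaperones differed in their change was not tested.

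The genes with a pattern most like that of HSPA5 were sought among 10069 genes of at least 10 CPM outside the members. Likeness was the root mean square difference of centred log2 CPM over the 6 libraries, against a spread of 0.069 for HSPA5 itself. The nearest were SMS with 0.015, NUDC with 0.016, SNORA64 with 0.018, CYB5B with 0.019 and PTMA with 0.019. None of these 5 is a listed ER chaperone, but the chaperones among the members were left out of the search. None was called in edgeR, which follows largely from the choice, since HSPA5 itself was not called.

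Some counts could hold reads of neighbours, since strand was not stated for the counting. HSP90B1 shares 805 exon bases with UQCC6 and 105 with TTC41P on the opposite strand, but UQCC6, listed as C12orf73, had only 133 to 208 counts and TTC41P 3 to 29, where HSP90B1 had 13578 or more. MIR3652 lies within HSP90B1 on the same strand and was at 22.5 ± 0.436 CPM against 19.8 ± 1.57 CPM (SD, n = 3). The processed copy HSP90B2P had 0 to 13 counts. DNAJB11 shares 381 exon bases with TBCCD1 on the opposite strand, which had 225 to 320 counts against 1581 or more for DNAJB11. It also shares 496 exon bases with HRG-AS1 on the opposite strand and 451 with an unnamed gene on the same strand, and ERN1 shares 432 and 452 with unnamed genes on the opposite strand. These are not in the count table, so their reads could not be bounded. Less mRNA per cell and fewer cells of a kind cannot be told apart in these bulk libraries, and no protein was measured.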

How the data were processed

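The 3 siALDOA and 3 siControl libraries of HT29 cells were grouped by their sample labels. Starting values were the raw gene counts deposited by the authors, who had mapped reads with TopHat2 on hg38. The gene annotation, the strandedness and the treatment of multiply mapped reads are not given in the sources used here. Totals ranged from 27277538 to 33237914 counts.

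Counts were tested in R 4.3.3 with edgeR 4.0.16 (filterByExpr, library sizes over the genes kept, TMM, quasi-likelihood F-test, no covariate) and Benjamini-Hochberg adjustment over all 15307 genes tested. A gene was called at an adjusted p < 0.05. A standard error was taken as |log2 fold change| over √F, and log2 CPM used a prior count of 2. Levels per kb used Ensembl canonical transcripts of GENCODE on hg38. Promoters came from RefSeq (GRCh38.p14), and figures from matplotlib 3.10.9 in python 3.11.15. The fit was tested on simulated data with changes larger than that of any member, so the simulation does not bear on changes as small as theirs.

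Named genes were ALDOA, the 10 members, from each further list up to 3 called genes by p in each direction with the most abundant gene per length, and EIF2AK3, ERN2, ATF6B, ATF4 and DDIT3. MANF, CALR, SDF2L1, EIF2S1, PPP1R15A, CEBPB, VLDLR, DERL1, SYVN1, the keratins, the ERSE genes and the neighbours were chosen after their values were seen. The members and lists were chosen with earlier results of these data known. Alternatives were limma-voom (limma 3.58.1), DESeq2 1.42.0, library totals only, upper quartile scaling, an unadjusted P < 0.01, no filter, a filter of 10 or more counts throughout, a replicate block, no ribosomal RNA genes and each library left out in turn. Leaving out ribosomal RNA genes together with library totals only was added after the data were seen.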

Additional observations from a re-analysis of the deposited data

How the results depend on the processing

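ALDOA kept its direction and its call in all 16 alternatives, with log2 fold changes from -1.17 to -1.06. No called member changed sign. HSP90B1 ranged from 0.18 to 0.33 and SEL1L from -0.22 to -0.12, with adjusted p from 5.29e-04 to 0.0565 and from 0.0149 to 0.426. With library totals only, 0 members were lower, 279 of all genes and 4 further ER genes were lower, and 1 heat shock protein was higher; the medians were 0.014 for the members, 0.049 for the further ER genes and 0.16 for the heat shock proteins. That scaling moved the median of all genes to 0.075, and with ribosomal RNA genes also left out, a setting added after the data were seen, it was 0.0099, with 1 member, 760 of all genes and 16 further ER genes lower. The cause of the remaining shifts was not tested. Leaving out 1 library gave 0 to 2 lower and 0 to 1 higher members, 471 to 790 lower and 359 to 644 higher of all genes, 8 to 15 lower further ER genes, 0 to 1 higher heat shock proteins and a median of these from -0.011 to 0.14, with fewer samples in each fit. For all genes and the further ER genes, the fewest calls came without siControl replicate 2 or 3. The same 1 heat shock protein count was given by DESeq2, by no filter on low counts, by an unadjusted P < 0.01 (which took 6.74% and 5.72% of all genes as lower and higher), by the replicate block and by library totals without ribosomal RNA genes.

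Whether replicate numbers pair the libraries was not settled. The deviations of same-numbered libraries correlated over genes with r = 0.035, 0.027 and 0.026. For libraries of different number r ran from -0.046 to 0.022, so all were small but the same-numbered ones were the highest. A replicate block gave 1175 lower and 987 higher genes, against 810 and 668 without it. It also gave 1 lower and 1 higher member, with a median of -0.059 for the members. The adjusted p of edgeR was then 0.00228 for HSP90B1 and 0.0149 for SEL1L. With 3 libraries a group, small changes can be missed. The 95% intervals of the members without a call reached from -0.38 for ERN1 to 0.27 for DNAJB11, so these 8 members cannot be taken as unchanged.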
